A study of Oryza sativa with 4 samples.

Results

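The regions of interest were the OsLEC1 peaks in 4 intervals of the rice genome (IRGSP-1.0) where peaks were sparse. The intervals run from 1.0 to 7.7 Mb on the short arm and from 11.7 to 19 Mb on the long arm of chromosome 4, from 4.8 to 12 Mb on the long arm of chromosome 9, and from 1.0 to 6.2 Mb on the short arm of chromosome 10. They leave out the centromeres and the bases beside them. A peak was a member when its summit, the base with the highest ChIP coverage, lay in an interval. In total, 705 of the 27452 OsLEC1 peaks were members, which is 2.57% of the list, over 26.4 Mb. They were set beside the dense remainder of the same chromosomes, from 19 Mb on chromosome 4, from 12 Mb on chromosome 9 and from 10.2 Mb on chromosome 10, each to its last peak. It held 4370 peaks over 40.4 Mb. Of the 5413 peaks on the 3 chromosomes, the remaining 338 (6.24%) lay before or between these stretches and were not used.

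LEC1 is known as an NF-YB subunit of the nuclear factor Y complex, in which it pairs with an NF-YC subunit through a histone fold, while the NF-YA subunit reads the CCAAT box. In Arabidopsis it acts as a central regulator of embryo and seed maturation. Heterochromatin is the compact, repeat-rich and gene-poor part of the genome. In rice it surrounds the centromeres and, by cytology, extends over much of the short arms of chromosomes 4 and 10, whereas genes lie mostly in the outer parts of the arms.

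The data are ChIP-seq peak lists from rice callus of the Nipponbare background, induced from seeds for 30 days on medium with 10 μM 2,4-D, a synthetic auxin. OsLEC1-ChIP came from 35S:3*FLAG-OsLEC1 callus, in which the constitutive 35S promoter drives the tagged protein in a single transgenic line, and NIP-ChIP from the untagged wild type. An antibody against the DDDDK epitope of the tag was used, and each genotype had its own input DNA. With 1 library in each of the 4 groups there were no replicates, and the bound protein was overexpressed, so nothing here can be set against a spread between callus samples. The mean coverage of OsLEC1-ChIP, read from the lowest background in the list, was 3.49 fragments per base. It depends on the genome size set in MACS2, which the methods do not state.

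The intervals were chosen by the number of these same peaks along each chromosome. Density, and every height or width taken from the same library, is therefore described below and not tested. Whether the intervals are heterochromatic could not be checked, since the lists carry no chromatin mark and no annotation of this build was used. They are called sparse throughout.

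OsLEC1 peaks were present in all 4 sparse intervals, at a low density. The sparse intervals held 26.7 peaks per Mb (95% interval 24.8 to 28.8), against 108 (105 to 111) in the dense remainder, a ratio of 0.247. By chromosome, the short arm of chromosome 4 had 21.8 peaks per Mb with 146 peaks, and its long arm had 27.7 with 202. The interval on chromosome 9 had 26.4 with 190 peaks, and that on chromosome 10 had 32.1 with 167. The remainders had 130.0 peaks per Mb on chromosome 4, 110.5 on chromosome 9 and 78.2 on chromosome 10. Every sparse interval was thus below every remainder, which the choice of intervals fixes. The peaks covered 1.14% of the sparse intervals, against 5.55% of the dense remainder. This ratio of covered length, 0.206, was lower than the ratio of peak numbers because the peaks were also narrower.

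Bin counts of the sparse and the dense part were apart on chromosomes 4 and 9 and overlapped on chromosome 10. The intervals were chosen by these same peaks, which favours such a gap. On chromosome 10 the parts do not adjoin, since 6.2 to 10.2 Mb was left out. The 25 complete 1 Mb bins of the sparse intervals held 10 to 44 peaks, with a median of 25, against 37 to 163 with a median of 115.5 in the 38 bins of the dense remainder. The fullest sparse bins, with 44 peaks each, lay on the long arm of chromosome 4 from 16000001 to 17000000 and from 18000001 to 19000000. The emptiest, with 10 each, lay on chromosome 4 from 3000001 to 4000000 and from 15000001 to 16000000. On chromosome 4 the sparse bins ended at 44 peaks and the remainder held 95 or more in every bin. On chromosome 9 the values were 18 to 35 in the sparse bins and 62 to 147 beyond them. On chromosome 10 the sparse bins held 17 to 43 peaks, but the remainder held only 37 to 60 in its 6 bins up to 17 Mb and 84 to 127 in the 6 bins beyond. Its first part thus overlapped the fullest sparse bins, and the word dense fits it less well. The variance across sparse bins was 3.97 times their mean, and on chromosome 9 alone it was 1.49 times. Peaks were spread most evenly in that interval. Across the bins of the dense remainder the variance was 10.6 times the mean. The counting intervals of the densities assume equal variance and mean, so they are too narrow.

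**Figure D1:**
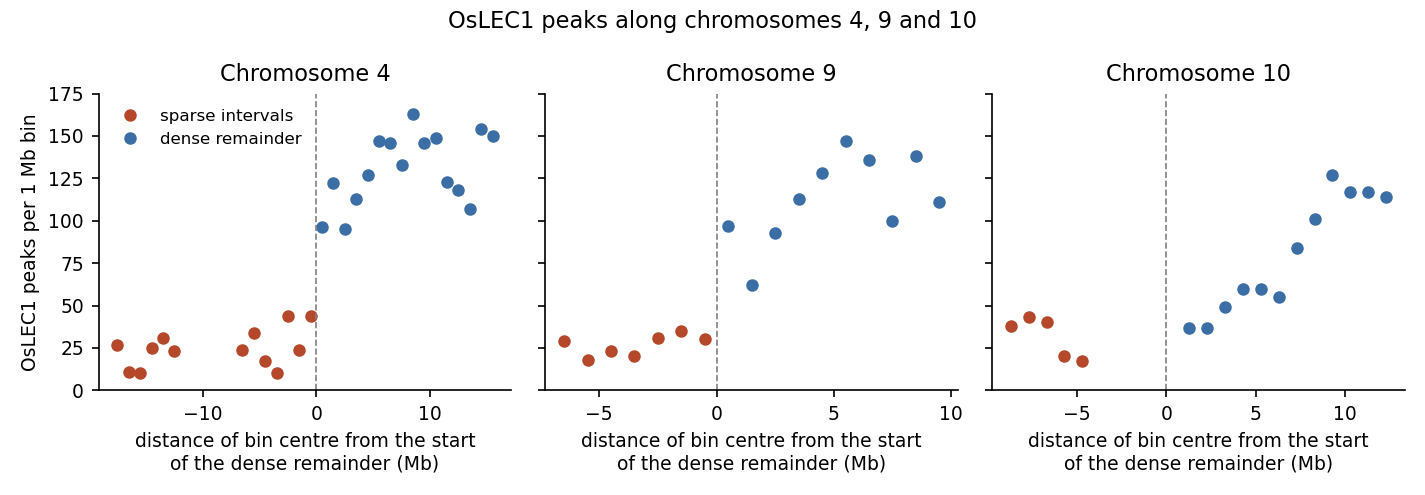
Number of OsLEC1 peaks in each complete 1 Mb bin (y axis) against the distance of the bin centre from the start of the dense remainder in Mb (x axis), for chromosomes 4, 9 and 10. Each point is a bin, orange-red in the sparse intervals and blue in the dense remainder. Sparse bins hold 10 to 44 peaks, and the remainder of chromosome 10 begins at 37 before it climbs to 127.

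Where a peak was present in the sparse intervals, it was about as strongly enriched over its background as elsewhere. The authors' fold had a median of 5.20 (95% interval 5.03 to 5.42) in the sparse intervals and 5.08 (4.98 to 5.16) in the dense remainder. It ranged from 2.09 to 33.6 among the members and from 1.87 to 33.8 in the remainder. By interval the median fold was 5.21 on the short arm and 5.37 on the long arm of chromosome 4, 5.37 on chromosome 9 and 4.99 on chromosome 10, against 4.97 to 5.19 in the remainders. The sparse and dense ranges overlapped. A fold of 10 or more was found for 56 members, or 7.94% (6.06 to 10.2%), against 381 peaks, or 8.72% (7.90 to 9.59%), in the remainder. These counting intervals overlapped.

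Both quantities behind the fold were lower in the sparse intervals. The pileup, which counts the ChIP fragments that cover a summit, had a median of 34 (33 to 35) in the sparse intervals and 40 (39 to 40) in the dense remainder. The background, for which MACS2 keeps the highest among local input averages in windows of different size and the genome-wide mean, had a median of 5.72 (5.72 to 5.99) fragments and 6.68 in the remainder. The ratio was 0.85 for the pileup and 0.857 for the background, so that the fold changed little. Median pileups were 32 to 36.5 in the 4 sparse intervals and 38 to 41 in the 3 remainders. Median backgrounds were 5.72 to 5.99 in the sparse intervals and 6.68 to 7.14 in the remainders. The sparse and dense ranges overlapped in neither measure.

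**Figure D2:**
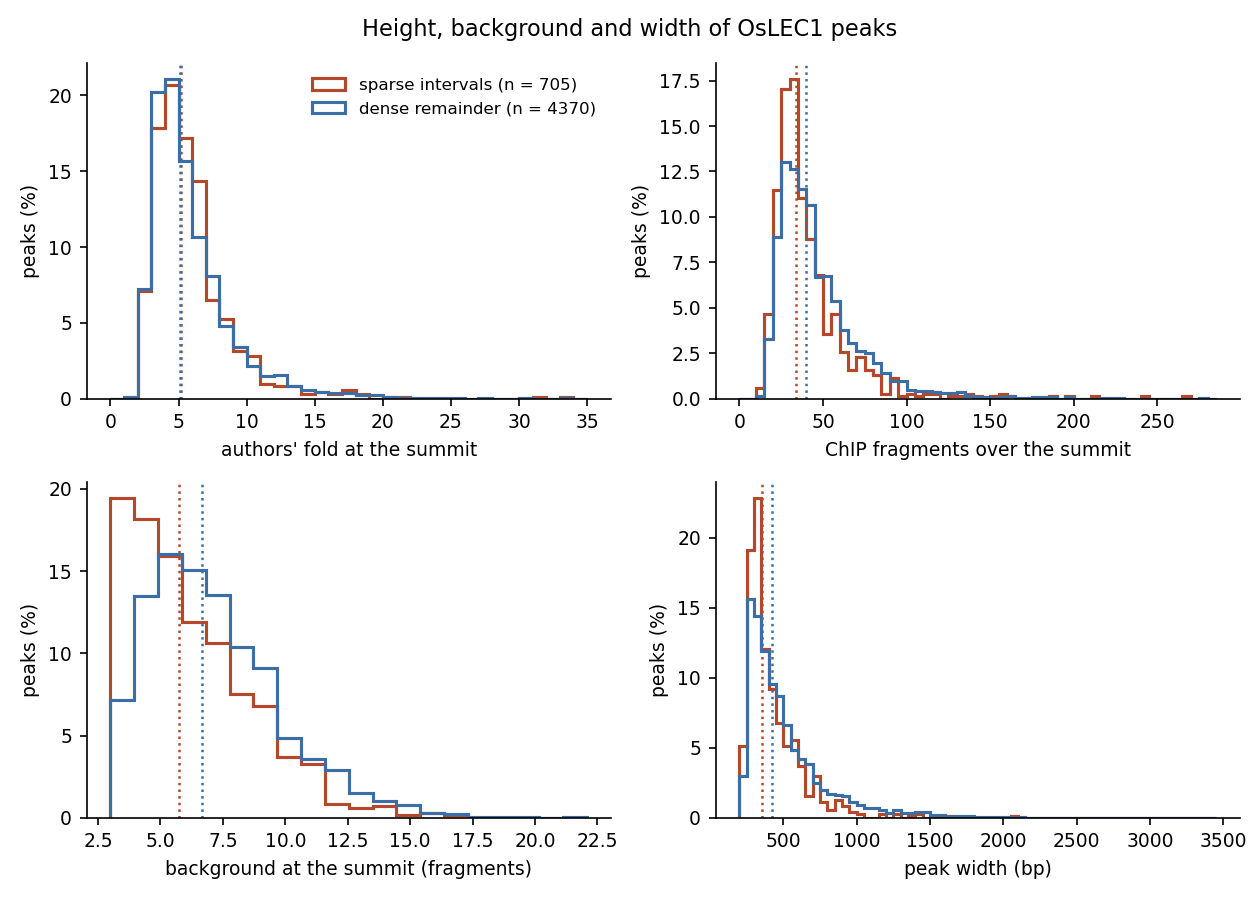
Distributions of the authors' fold, the ChIP fragments over the summit, the background in fragments and the peak width in bp (x axes), as percent of peaks (y axes), for 705 peaks of the sparse intervals and 4370 of the dense remainder. Dotted lines mark the medians, 5.20 and 5.08 for the fold, 34 and 40 for the pileup, 5.72 and 6.68 for the background and 356 and 425 bp for the width, each pair being the sparse intervals against the dense remainder.

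The difference in background also held within classes of similar pileup. Pileup was not equal within a class, and no counting intervals were taken for these median backgrounds. Of the members, 202 had 30 to 39 fragments over the summit, and their median background was 5.72, against 6.68 for 1057 peaks of the remainder. Their median fold was 5.07, against 4.56 in the remainder. Between 20 and 29 fragments, the median background was 4.84 in 201 members and 5.72 in 957 peaks of the remainder. At 60 or more fragments it was 7.63 in 97 members and 8.59 in 919 peaks of the remainder. In all 5 classes of pileup the median background was lower at members. Sorted by −log10 q-value instead, this did not hold in the strongest class, 50 or more, where the median background was 7.63 at 43 members and 6.68 at 368 peaks of the remainder.

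The background can be read in input fragments. At 465 members (66.0%) and 2861 peaks of the remainder (65.5%), it equalled a whole count of input fragments covering the summit, scaled by 0.954 to the ChIP depth, within a tolerance of 0.001. Some of these backgrounds, such as 6.67845 beside 6.67874, met the tolerance slightly off the whole count. Averages of wider windows may thus be among them, and the shares are approximate. The median number was 7 input fragments in the sparse intervals and 8 in the dense remainder. For the median background of all peaks, sparse minus dense was −0.954, which is 1 scaled input fragment. At 174 members (24.7%, 21.5 to 28.0%) and 1395 peaks of the remainder (31.9%, 30.5 to 33.3%), the background came from a wider window around the summit. The rest had the lowest value possible in the list, 3.49 fragments, where no input average exceeded the genome-wide mean. This was so for 66 members, or 9.36% (7.31 to 11.8%), against 114 peaks, or 2.61% (2.16 to 3.13%), in the remainder.

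Peaks with this lowest background were found in every sparse interval at a higher share than in any remainder. The share was 12.3% (7.47 to 18.8%) on the short arm of chromosome 4, 7.92% (4.60 to 12.5%) on its long arm, 8.95% (5.30 to 13.9%) on chromosome 9 and 8.98% (5.12 to 14.4%) on chromosome 10. In the remainders it was 1.77% on chromosome 4, 2.24% on chromosome 9 and 4.82% (3.59 to 6.33%) on chromosome 10. The intervals of the last value and of the 3 lower sparse values overlapped. The share was thus higher in the intervals chosen for few peaks, but among these it did not fall steadily as density rose. Only uniquely mapped reads were kept, and reads from repeated sequence are lost at that step. The part of read coverage in the lower peak density was not tested, and the list does not give the input between peaks.

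**Figure D3:**
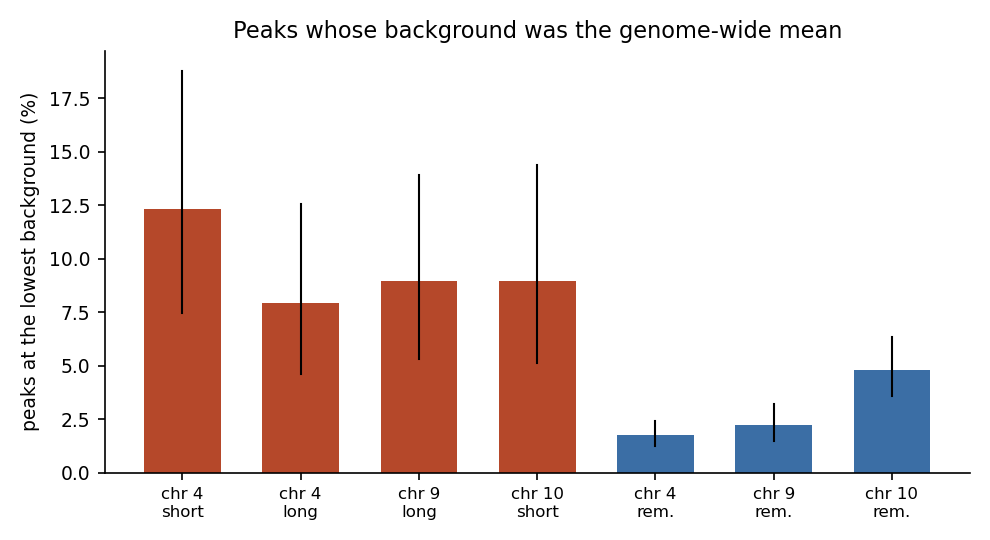
Percent of peaks whose background was the lowest in the list, 3.49 fragments, in the 4 sparse intervals (left, orange-red) and the 3 remainders (rem., blue). Black lines are exact 95% Clopper-Pearson intervals. Sparse intervals lie between 7.92 and 12.3%, and remainders between 1.77 and 4.82%.

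Members were narrower than peaks of the dense remainder. The median width was 356 bp (347 to 377) in the sparse intervals and 425 bp (416 to 432) in the dense remainder. It was 352.5 to 362.5 bp in the 4 sparse intervals, which did not differ beyond their counting intervals, and 393 to 449 bp in the remainders. Regions of at least 1000 bp made up 12 members, or 1.70% (0.883 to 2.95%), against 293 peaks, or 6.70% (5.98 to 7.49%), in the remainder. Members were narrower in each class of pileup, but the counting intervals were apart only from 40 fragments upwards. At 20 to 29 fragments the median width was 307 bp (295 to 324) in the sparse intervals and 319 bp (314 to 331) in the remainder, while at 60 or more it was 578 bp (530 to 616) in the sparse intervals and 644 bp (624 to 665) in the remainder.

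**Figure D4:**
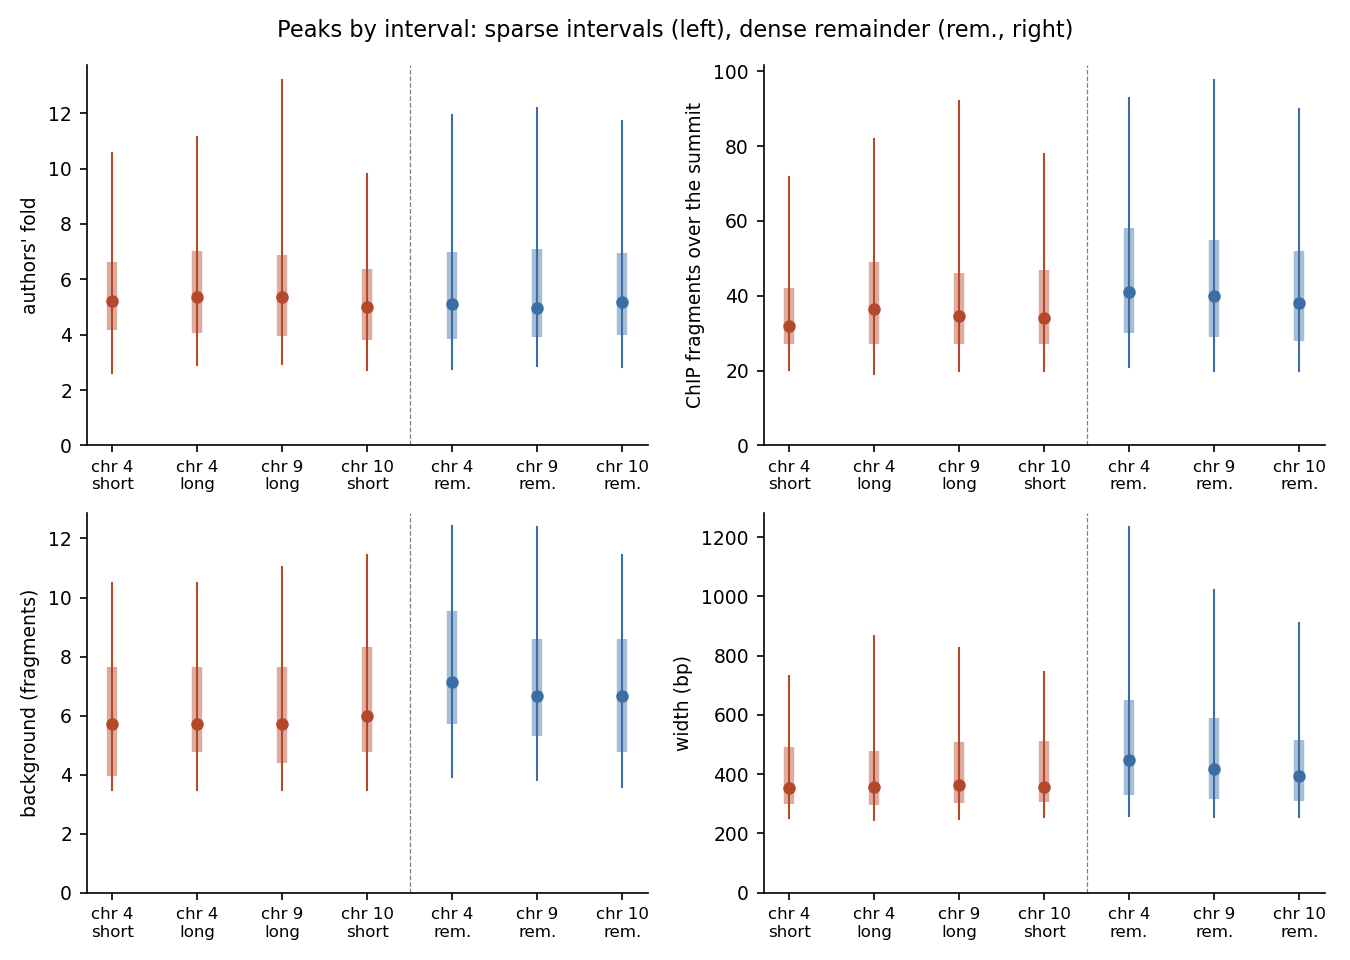
Authors' fold, ChIP fragments over the summit, background in fragments and width in bp (y axes) for each sparse interval (left, orange-red) and each remainder (rem., blue). Points are medians, thick bars span the middle 50% of peaks, and thin lines run from the 5th to the 95th percentile. Median folds overlap between the sides, whereas pileups of 32 to 36.5 stand against 38 to 41 and widths of 352.5 to 362.5 bp against 393 to 449 bp.

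The sparse intervals held fewer peaks in every class of strength. For a −log10 q-value of 50 or more, the sparse intervals had 1.63 peaks per Mb and the remainder 9.10, a ratio of 0.179. From 20 to 50 the ratio was 0.211, and from 10 to 20 it was 0.282. Below 10, it was 0.254 from 5 to 10, 0.321 from 3 to 5 and 0.208 below 3, where the sparse intervals held only 8 peaks. Peaks of the strongest class made up 43 members, or 6.10% (4.45 to 8.13%), against 368 peaks, or 8.42% (7.61 to 9.28%), in the remainder. Peaks from 10 to 20 made up 37.7% (34.1 to 41.4%) of the members, against 33.1% (31.7 to 34.5%) in the remainder. Density was lower in each class, from the weakest to the strongest. The intervals were chosen for few peaks, so this is no separate result.

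Among the members, height and width varied together. Spearman's rho across the 705 members was 0.675 between fold and pileup, 0.560 between pileup and width, and 0.398 between fold and width. Background was higher at members with a higher pileup (rho 0.411) and lower at those with a higher fold (rho −0.336). The same relations in the dense remainder gave 0.730, 0.570, 0.453, 0.389 and −0.298. These values describe peaks of 1 library. Fold is computed from pileup and background, so relations between these are partly built in.

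The member with the highest fold, 33.6, was chr9:7328175-7328790, the peak of rank 8 in the whole list. It had 150 fragments over the summit (95% interval 127 to 176) on the lowest background, 3.49. Next was chr10:2614168-2614891, of rank 16, with a fold of 31.7 from 212 fragments (184 to 243) over 5.72, which was 6 input fragments. These members stood apart from the others, since the next fold was 21.4. It belonged to chr4:5788324-5788868 on the short arm, with 114 fragments (94.0 to 137) over 4.38. The highest fold in the remainder was 33.8. The intervals of the first and second pileup did not overlap, and the order of their folds follows from the lower background of the first.

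The other members among the 10 highest had folds of 17.1 to 20.9 and ranks of 122 to 315. On chromosome 9 they were chr9:11015770-11016299 with 93 fragments over 3.49, chr9:9495960-9496676 with 161 over 7.63, chr9:5336907-5337779 with 186 over 9.54, and chr9:9566774-9567644 with 265 (234 to 299) over 14.3. The last had the highest pileup of all members, but also 15 input fragments over its summit. On the long arm of chromosome 4 they were chr4:16810146-16811591 with 159 fragments over 7.63 and chr4:14083188-14084218 with 196 over 10.5. On chromosome 10 there was chr10:2993755-2994353, with 100 fragments over 4.84. Of the 10, 5 lay on chromosome 9, which had 190 of the 705 members.

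The widest members were chr4:18899834-18901906 with 2073 bp and chr4:17075192-17076802 with 1611 bp, both on the long arm of chromosome 4, and chr10:1306969-1308561 with 1593 bp. The first had 158 fragments (134 to 185) over 11.4, and the second had 114 (94.0 to 137) over 7.63. The third was low, with 33 fragments (22.7 to 46.3) over 4.77 and a fold of 5.89, so that great width did not require a high summit. The members with the lowest −log10 q-values were chr10:1702579-1702898 and chr10:1596932-1597210, followed by chr4:14048285-14048537 and chr4:16069851-16070197, which tied for the third place with equal values. They had 15, 17, 14 and 14 fragments and −log10 q-values of 2.25, 2.25, 2.42 and 2.42, close to the lowest value in the whole list, 2.01. Their folds were 2.45, 2.34, 2.60 and 2.60.

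Peaks just inside and just outside the edges had folds in overlapping ranges. The 8 members nearest to an edge inside the intervals had folds of 2.50 to 6.85, at 0.73 to 180 kb from it. The 8 nearest peaks outside had folds of 2.86 to 8.91, at 1.31 to 176 kb. At 19 Mb on chromosome 4, the last member had its summit at 18999271 with a fold of 5.21, and the first peak of the remainder at 19005634 with 3.94. At 12 Mb on chromosome 9, the last member was at 11994716 with a fold of 2.50 and the first peak of the remainder at 12032649 with 4.46.

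Neighbouring summits lay far apart in the sparse intervals. The median distance was 17.1 kb over 701 distances in the sparse intervals and 5.49 kb over 4367 in the dense remainder. A distance under 2 kb was found for 76, or 10.8% (8.64 to 13.4%), against 879, or 20.1% (18.9 to 21.3%), in the remainder. The share was 13.1% on the short arm and 11.4% on the long arm of chromosome 4, 8.99% on chromosome 9 and 10.2% on chromosome 10, against 15.8 to 21.8% in the remainders. Spacing follows from density in part, so this is no separate result. The distances were still unequal. Their SD was 1.62 times the mean in the sparse intervals and 1.35 times in the remainder, and it was highest, 1.94 times, on the short arm of chromosome 4.

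**Figure D5:**
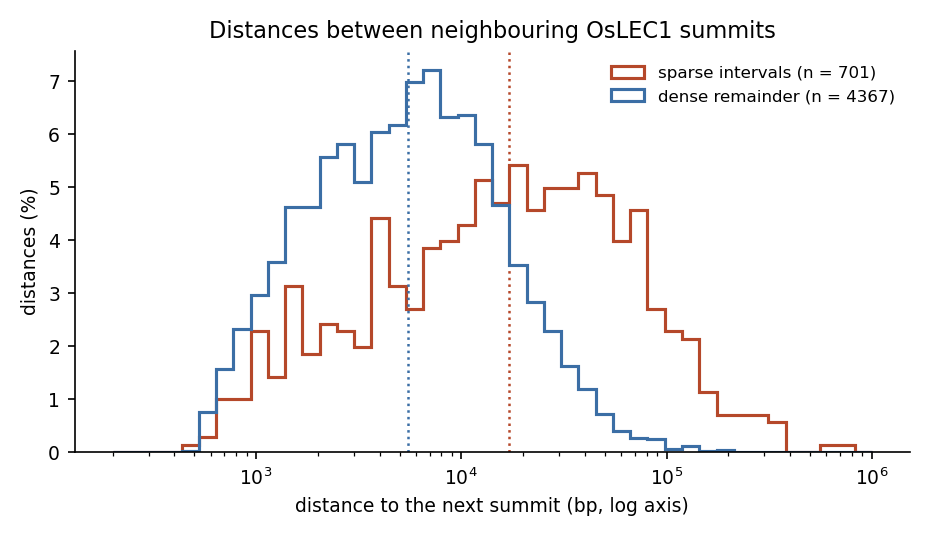
Distances in bp between neighbouring OsLEC1 summits (x axis, log scale), as percent of the distances (y axis), for 701 distances in the sparse intervals (orange-red) and 4367 in the dense remainder (blue). Dotted lines mark the medians, 17.1 kb and 5.49 kb. The sparse distances reach 682 kb, and those of the remainder 184 kb.

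Long stretches of the sparse intervals had no summit. The longest, 682 kb, ran from the summit at 3583121 to that at 4265500 on the short arm of chromosome 4. The next, 590.1 kb, was on the same arm from 2523778 to 3113888. The third, 366 kb, was on the long arm from 14165694 to 14532019. Distances over 100 kb numbered 59 in the sparse intervals and 11 in the dense remainder, where the longest was 184 kb. Of 264 windows of 100 kb in the sparse intervals, 51 held no summit (19.3%, 14.7 to 24.6%), against 4 of 403 (0.993%, 0.271 to 2.52%) in the remainder. The short arm of chromosome 4 held 23 of these 51 windows, out of 67 of its own. The other 3 sparse intervals had 12.5 to 16.4% of their windows empty. Long distances and empty windows also follow in part from the density by which the intervals were chosen.

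Most members stood alone or in pairs, yet small groups occurred in each interval. With summits joined when the next was within 10 kb, 283 members stood alone, or 40.1% (36.5 to 43.9%), against 439 peaks, or 10.0% (9.17 to 11.0%), in the remainder. Runs of 3 or more summits held 214 members, or 30.4% (27.0 to 33.9%), against 3367 peaks, or 77.0% (75.8 to 78.3%). With a fixed step of 10 kb, both shares follow in part from density, so they are no separate result. The largest run of the sparse intervals had 9 summits in 25.2 kb, at chr4:18898402-18923583. It held the widest member, its folds ran from 3.21 to 12.8, and it ended 76.4 kb before the edge of its interval. On chromosome 10 the largest run had 6 summits at chr10:3928872-3950318, with folds of 4.56 to 6.38. On chromosome 9 it had 5 summits at chr9:10735333-10751585, with folds of 3.92 to 8.18. On the short arm of chromosome 4 there were 3 runs of 5, the first at chr4:5127914-5137775. In the dense remainder the largest run had 28 summits.

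The height and background of the members were close to those of peaks in other sparse parts of the genome, while their median width was lower. On the other 9 chromosomes, 82 complete 1 Mb bins held at most 44 peaks, the number in the fullest sparse bin, and together 2441 peaks. The members had a median pileup of 34 (33 to 35), against 35 (34 to 36) in those bins. The median background was 5.72 (5.72 to 5.99) at the members and 5.73 (5.72 to 5.99) in those bins, and the share at the lowest background was 9.36% and 10.2% (8.99 to 11.4%). The median fold was 5.20 at the members and 5.10 (5.01 to 5.21) in those bins. The median width was 356 bp (347 to 377) at the members and 379 bp (370 to 387) there. These intervals overlapped, but each median lay outside the interval of the other. These bins were also chosen by their number of peaks, and they include centromeres and chromosome ends. The counting intervals overlapped in each of these measures, which does not show that the values are equal.

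The untagged control had no peak in the sparse intervals. NIP-ChIP had 2 peaks in all, both on chromosome 11, and 0 in the 26.4 Mb of the sparse intervals, against 705 from OsLEC1-ChIP. As a one-sided limit that covers counting error alone, a count of 0 allows up to 3 peaks, or 0.114 per Mb. Mean coverage read from the lowest background, however, did not exceed 0.842 fragments per base in NIP-ChIP, against 3.49 in OsLEC1-ChIP. This comparison assumes that the same genome size was set for both lists. The lists then differ in depth as well as in the tag, and these cannot be told apart here.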

How the data were processed

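Peak lists of 1 OsLEC1-ChIP and 1 NIP-ChIP library were used, and the inputs entered only through them. Per the labels and methods, reads were aligned to IRGSP-1.0 (Bowtie2 2.3.4.1), only reads with a unique position were retained, and MACS2 2.1.2 called peaks against the input of the same genotype. The methods also name a step on replicates (IDR), but the labels show 1 library per group. The authors deposited for each peak a fold, which is a ratio of fragments over the summit plus 1 to background plus 1, the p-value and the q-value as −log10, and a score that was not used here. Depth was not given in total fragments.

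From the fold and the −log10 p-value, pileup and background were solved with a Poisson tail, and 100% of peaks were recovered within 0.001. The solver was checked on simulated data. Two-sided 95% intervals are exact: Poisson for counts, Clopper-Pearson for shares and order statistics for medians. They cover counting error alone, treat peaks as independent and include no variation between callus samples. The limit of 3 for a count of 0 is one-sided. No test was run. Regions were named by fixed rules: the 10 highest folds, the 3 widest, the 3 lowest −log10 q-values, the 3 longest stretches without a summit, the peaks at the interval edges, and the emptiest and fullest bins. The intervals, lists and limits were chosen with earlier results of these data known. Runs, windows, classes and bins of other chromosomes were added after the values were seen. Genes and sequences were not analysed here, because the gene table used was of another assembly (ASM3414082v1). Python 3.11.15, numpy 2.4.6, pandas 2.3.3, scipy 1.17.1 and matplotlib 3.10.9 were used.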

Additional observations from a re-analysis of the deposited data

How the results depend on the processing

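Alternatives were run for the peak density, the median fold, pileup, background and width, and the share of summits under 2 kb apart. Each was taken as a level and against the dense remainder. None of the comparisons with the remainder changed direction, which the choice of intervals fixes for density. The difference in median fold, 0.129 (−0.0684 to 0.364), had no settled direction, since its interval held values of both signs in every setting. Alternatives were not run for the lowest-background share, the fold and width limits, the classes, runs or windows. Counting only peaks with a −log10 q-value from 5 upwards, the sparse intervals had 24.7 peaks per Mb. At 10 or more, they had 18.2 peaks per Mb, a median fold of 6.23, a median pileup of 41 fragments, a median width of 403 bp and 7.35% of neighbouring summits under 2 kb apart. Fewer and stronger peaks are counted there by construction. The ratio of densities was 0.222 when the remainder of chromosome 10 was counted from 17 Mb, a setting added after its bins were seen. These 12 values stayed within the counting intervals of the reported ones when 0.5 Mb was trimmed from each end of the sparse intervals, and also when each of the 4 intervals was left out in turn, which was added later. Without the short arm of chromosome 4, however, the interval of the difference in median background, −0.954 to −0.000292, came close to no difference. NIP-ChIP had 0 peaks in the intervals and 0 within 10 kb of them. The planned results on transcription starts, G-boxes and soft-masked sequence were not run, because no genome or annotation of the build was used here. No paired analysis was possible because no group held more than 1 library. Depth limits the NIP comparison: with the same genome size set for both, NIP-ChIP reached no more than 24.1% of the mean coverage of OsLEC1-ChIP.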
